A study of Drosophila melanogaster with 2 samples.

Results

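Peaks of the homeodomain protein Aristaless were described at 10 Drosophila genes of the Notch pathway and its targets: the receptor gene N, the ligand gene Ser, the ubiquitin ligase gene neur, the nuclear genes Su(H) and mam, and the target genes E(spl)m3-HLH, E(spl)m5-HLH, E(spl)m7-HLH, E(spl)m8-HLH and E(spl)mbeta-HLH. The genes were named from a list, with earlier results of these data known, and not by a threshold on these values. They are 10 of 13968 annotated protein-coding genes on the 7 chromosome arms. Aristaless binding was mapped by chromatin immunoprecipitation and sequencing (ChIP-seq) in flies of the strain al-GFP, which express an al-eGFP fusion protein, with an antibody against GFP. Both libraries came from whole embryos aged 0 to 24 h, with sonicated chromatin of 200 to 800 bp, and were labelled as biological replicates 1 and 2 of 1 group. Whole embryos pool every cell type and stage of that day, so no peak can be placed in a cell type. Peak lists give no expression, so the stage and tissue were not checked against markers. The data hold no contrast between conditions, the possible control libraries were not analysed here, and the comparisons are therefore descriptions of positions and of both replicates side by side, with no test.

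Notch signalling passes between neighbouring cells. A ligand on the surface of a cell, Serrate or Delta, binds the receptor Notch on the next, the receptor is cut, and its inner part enters the nucleus, where it joins the DNA-binding protein Suppressor of Hairless and the coactivator Mastermind. Genes of the Enhancer of split complex, E(spl), are the best known targets. Those named HLH, which include the 5 described here, encode basic helix-loop-helix (bHLH) repressors that, in the embryo, keep the neighbours of a future neuroblast from taking the neural fate.

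The windows printed here reach 100 bp to either side of a peak's summit and carry the results at N, neur, Su(H) and the E(spl) complex. They are the plus strand of the RefSeq release 6 genome, 5′ to 3′. Capitals mark matches to a searched motif: TAATTA (a homeodomain core) in the neur window and in both E(spl)m3-HLH windows, GTGAGAA (a Su(H) core) in the upstream E(spl)m3-HLH window, and TATCGATA (the DNA replication-related element, DRE) in the 30 bases at Su(H). At N no motif matched, and capitals mark instead a 19-bp direct repeat in the promoter window and a 12-bp run shared by both intronic windows, which were found after the sequences were seen. The gro promoter window printed here, which holds a peak near E(spl)m7-HLH and E(spl)m8-HLH, had no match. The window of the other gro promoter peak near these genes (3R, 26041479 to 26041808), which is not printed, held a TAATTA core.
N promoter, chrX:3134606-3134806: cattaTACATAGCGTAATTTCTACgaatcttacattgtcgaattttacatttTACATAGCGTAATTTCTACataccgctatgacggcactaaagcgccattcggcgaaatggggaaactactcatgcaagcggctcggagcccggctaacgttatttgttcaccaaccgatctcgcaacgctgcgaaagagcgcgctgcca
N intron, chrX:3157408-3157608: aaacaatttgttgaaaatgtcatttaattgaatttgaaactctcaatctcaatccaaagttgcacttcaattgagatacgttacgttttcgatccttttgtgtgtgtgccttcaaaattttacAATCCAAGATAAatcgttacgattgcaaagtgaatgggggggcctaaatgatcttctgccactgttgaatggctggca
N intron, chrX:3162466-3162666: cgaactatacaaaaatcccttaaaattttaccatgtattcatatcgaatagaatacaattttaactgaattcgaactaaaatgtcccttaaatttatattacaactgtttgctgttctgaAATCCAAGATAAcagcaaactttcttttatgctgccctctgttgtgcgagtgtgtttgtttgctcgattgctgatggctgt
neur promoter, chr3R:9033826-9034026: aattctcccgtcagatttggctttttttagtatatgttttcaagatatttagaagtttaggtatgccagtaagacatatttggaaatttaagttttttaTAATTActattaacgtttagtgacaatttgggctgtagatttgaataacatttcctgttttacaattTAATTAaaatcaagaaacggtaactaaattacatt
Su(H) start site, chr2L:15039484-15039513: gcctatcggacTATCGATAcaacatcaaca
E(spl)m3-HLH upstream, chr3R:26020317-26020517: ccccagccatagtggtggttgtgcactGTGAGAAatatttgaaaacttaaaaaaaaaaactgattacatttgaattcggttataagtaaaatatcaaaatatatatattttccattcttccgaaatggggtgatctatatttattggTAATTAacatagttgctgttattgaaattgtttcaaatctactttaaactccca
E(spl)m3-HLH promoter, chr3R:26021364-26021564: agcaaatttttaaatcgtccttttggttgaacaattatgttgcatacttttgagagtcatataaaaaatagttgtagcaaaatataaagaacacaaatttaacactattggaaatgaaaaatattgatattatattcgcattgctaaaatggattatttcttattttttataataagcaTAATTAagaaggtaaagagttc
gro promoter, chr3R:26042418-26042618: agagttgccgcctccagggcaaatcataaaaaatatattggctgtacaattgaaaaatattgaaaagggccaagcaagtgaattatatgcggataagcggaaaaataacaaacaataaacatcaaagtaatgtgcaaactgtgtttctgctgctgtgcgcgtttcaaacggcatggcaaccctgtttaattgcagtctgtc

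The authors deposited 8 peak lists. The main list, thresholded from both replicates together, has 3848 peaks (median signal 90.0), the conservative list 3493, the list of replicate 1 2987 (median 67.4) and that of replicate 2 2114 (median 56.9). The thresholded lists keep peaks with a global irreproducible discovery rate (IDR, a measure of how poorly a peak's rank repeats between inputs) of at most 0.01, and 4 ranked lists hold peaks above and below that threshold. On the arms, all 3822 main-list peaks were in the second of the series' ranked lists, and all 3473 conservative peaks in the first. Only the inputs of the first were matched here to the replicates. A main-list peak is thus not by that alone one that repeats between the replicates. The signal is the authors' own value for each peak. Since its scaling was not stated, it served only to order and describe the peaks of a given list and to set the replicates' values side by side. Equal values in both replicates need not mean equal binding. No read counts are in these lists, so the depth of each library is unknown. The al gene itself had a promoter peak with a signal of 50.6, which ranked 3520 of 3848.

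A peak summit lay inside the gene or within 5 kb of it at 8 of the 10 genes, against 46.2% of all protein-coding genes. The genes without a peak were the ligand gene Ser and E(spl)m5-HLH. The count was 8 of 10 in the conservative list, where the share of all genes was 44.1%, 7 of 10 in the replicate 1 list (39.8%) and 7 of 10 in the replicate 2 list (32.1%). Su(H) was the gene lost in both single-replicate lists. In every list the members' share stood above that of all genes. Since the members were chosen with earlier results of these data known, this excess cannot be read as a property of the pathway. Length moves with such a count. Of the 4 members of at least 15 kb, 3 had a peak, against 61.4% of all genes of that length, a similar share, and of the 6 under 5 kb, 5 had a peak, against 41.9%. Among those 5, E(spl)m7-HLH and E(spl)m8-HLH counted only through the same peaks at the gro promoters, outside both genes. The share of all genes counts shared peaks in the same way.

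A summit within 500 bp of an own transcription start site (TSS) was rarer. It was found at 4 of the 10 genes, N, neur, Su(H) and E(spl)m3-HLH, against 18.7% of all genes. In the conservative list mam joined them, giving 5 of 10 beside 17.7%. Replicate 1 alone gave 4 of 10 (N, mam, neur and E(spl)m3-HLH, beside 15.5%), and replicate 2 alone gave 1 of 10, E(spl)m3-HLH, beside 12.1%, a share near that of all genes. An intronic summit at no promoter was found at 3 of 10 genes, N, mam and neur, against 5.91% of all genes. These are the 3 longest members with a peak.

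**Figure D1:**
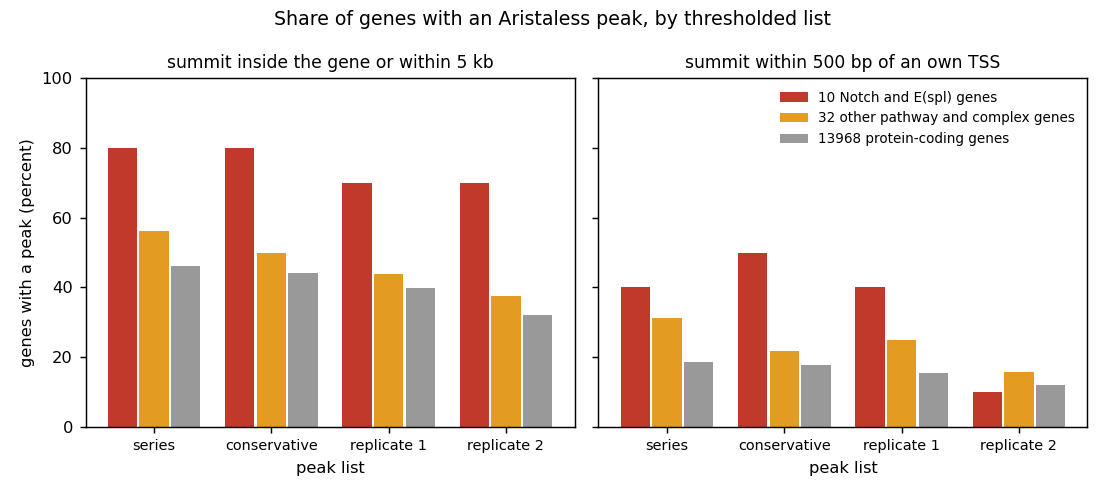
Percent of genes with a peak in the series' thresholded list, the conservative list and each replicate's own thresholded list, by summit inside the gene or within 5 kb (left) and by summit within 500 bp of an own TSS (right). Bars are shares with no error, for the 10 members, for 32 other genes of the pathway and complex, and for all 13968 protein-coding genes. The members' bar is highest everywhere except at own start sites in replicate 2, where 1 of 10 genes had a peak.

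Together the 8 genes held 20 distinct peaks. Of these, 9 were intronic, 5 lay at an own TSS, 4 lay within 500 bp of the TSS of another gene, and 2 lay in flanking sequence. No summit lay in an exon of a member outside those classes. The intronic peaks had the highest median signal, 107, with a range from 50.3 to 343, while the peaks at own start sites ranged from 32.4 to 184 with a median of 57.9. The peaks at neighbouring promoters ran from 48.0 to 343, and the flanking peaks were 66.7 and 124.

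The receptor gene N lies on chromosome X from 3134870 to 3172221 on the plus strand, with 1 annotated TSS, and held 4 peaks. The promoter peak (X, 3134541 to 3134870) had its summit 164 bp upstream of the TSS and a signal of 84.8, rank 2071 of 3848. In replicate 1 its signal was 41.3, and it passed that replicate's own threshold. Neither list of replicate 2 held a peak there, while the first of the series' ranked lists gives 41.3 and 37.1 for its inputs. The lists thus differ on whether replicate 2 had a peak at the N promoter.

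Both intronic peaks of N lay far from any start site. The stronger (X, 3157343 to 3157672), 22638 bp into the gene, had a signal of 134, with 75.2 in replicate 1 and 56.2 in replicate 2, and the summits of the replicates were 1 bp apart. The other (X, 3162401 to 3162730), 5058 bp further on, had a signal of 107, with 81.6 in replicate 1 and 31.6 in replicate 2. Both peaks passed the threshold in each replicate's own list. They are the only peaks at the receptor gene to do so, although replicate 1 gave the second of them a signal 2.58 times that of replicate 2. The replicates' summits of that second peak were 111 bp apart, and it ranked 2009 of 2114 in the own list of replicate 2.

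The fourth N peak belongs to a neighbour by position. It lay 310 bp from the TSS of CG18508 and inside the coding sequence of Fcp3C, beyond the end of N. Its signal of 48.0 ranked 3615, with 25.9 in replicate 1 and 22.8 in replicate 2, and it was in neither replicate's own thresholded list nor in the conservative list.

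The ligand gene Ser (3R, 27172090 to 27194267, minus strand), which codes for Serrate, had no thresholded peak in any list. The nearest summit of the series' list, with a signal of 68.4, was 14935 bp from Ser, beyond the 5 kb window. In the second of the series' ranked lists the strongest peak inside the window was intronic, with a signal of 38.0, rank 7659, against 30.0 for the strongest in replicate 2 and 23.2 for the strongest in replicate 1. Ranked peaks as such were not rare at Ser. The same list held 49 of them, 1.52 per kb of gene and window, against 0.92 per kb of the genome, so the gene was covered by weak peaks and not by a strong one.

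The gene neur (3R, 9020348 to 9039471, minus strand), whose product Neuralized is a ubiquitin ligase that drives uptake of the ligand Delta, has 2 annotated start sites and held 4 peaks. The strongest (3R, 9031836 to 9032165) was intronic, 1730 bp downstream of the inner TSS. Its signal was 155, rank 919, with 107 in replicate 1 and 48.9 in replicate 2. It was the only neur peak that passed the threshold in the own list of replicate 2, and it also passed in that of replicate 1.

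A pair of weaker neur peaks sat just upstream of the inner TSS, with summits 203 bp apart and overlapping intervals. The stronger, 195 bp from the TSS, had a signal of 57.9, with 43.4 in replicate 1 and 22.6 in replicate 2. The weaker, 398 bp from the TSS, had 32.4, rank 3719, with 12.4 in replicate 1, and matched the same replicate 2 peak. They can be counted as 1 region, and neur kept a peak at an own TSS when summits within 250 bp of a stronger summit were removed. A TAATTA core lay 1.5 bp from the summit of the stronger peak, as printed above, and a second lay 68.5 bp from it, while the weaker had a GAGAGAG match 60 bp from its summit.

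The fourth neur peak (3R, 9038704 to 9039033) lay 109 bp from the TSS of hyx, a gene that begins inside neur near its outer TSS. Its signal was 67.9, with 35.9 in replicate 1 and 31.3 in replicate 2, and it passed neither replicate's own threshold. It was also 602 bp from the outer neur TSS, so that it became an own-TSS peak only with the wider window of 1 kb. It held a Su(H) core 72.0 bp from its summit.

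**Figure D2:**
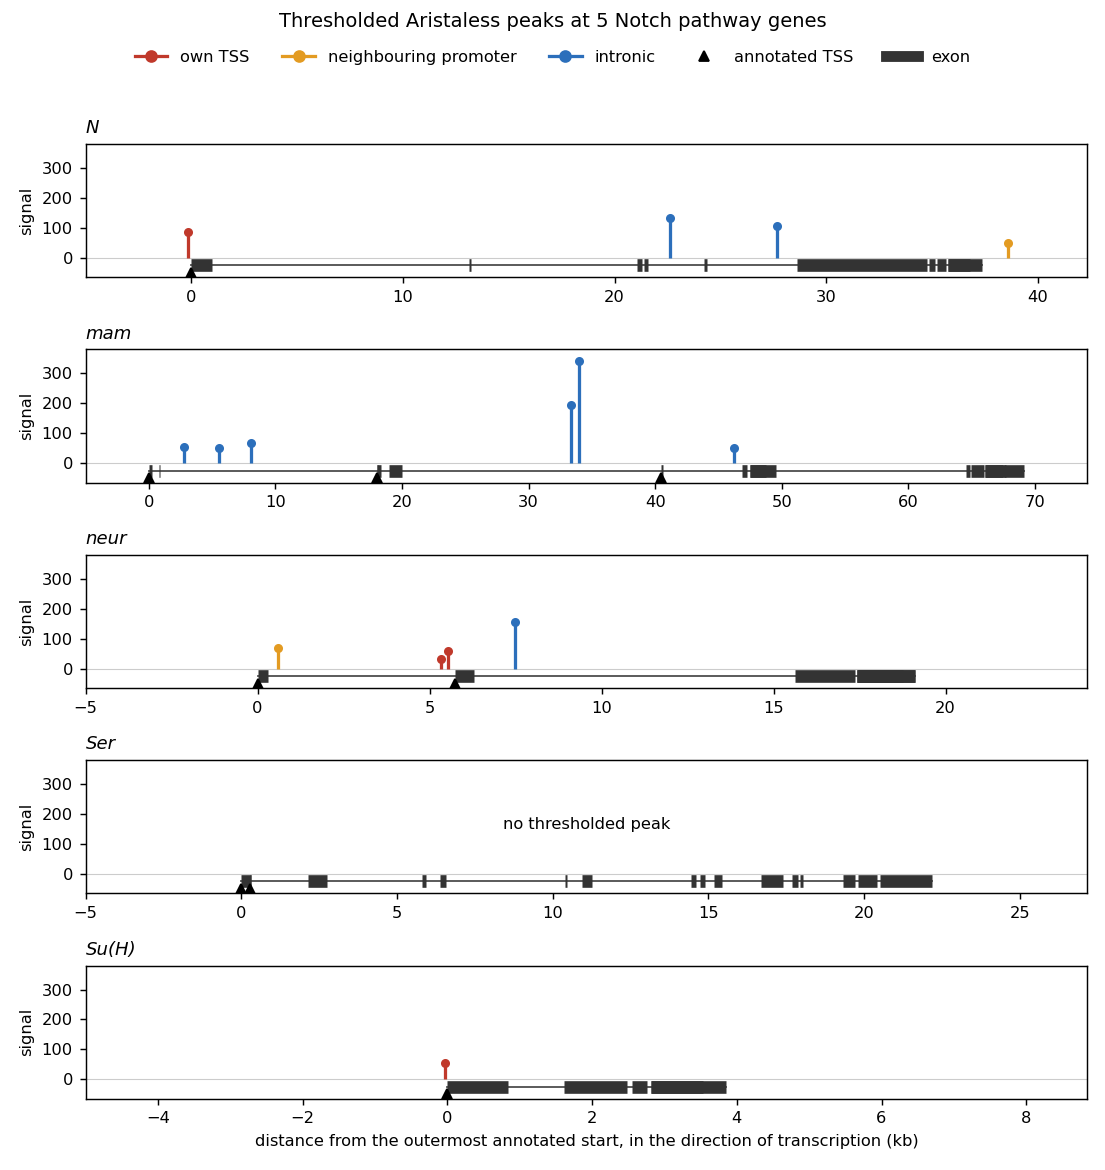
Thresholded peaks of the series' list at 5 genes, drawn by distance in kb from the outermost annotated start in the direction of transcription, with the authors' signal as height and the class of the peak as colour. Black boxes are exons and triangles are start sites. The strongest peaks at N (134), mam (343) and neur (155) stand inside introns, the Su(H) peak (53.7) stands at the start site, and Ser has none.

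Of the nuclear partners, Su(H) (2L, 15039488 to 15043334, plus strand), which encodes the DNA-binding protein of the pathway, had 1 weak peak at its start site. The peak (2L, 15039292 to 15039621) had its summit 31 bp upstream of the TSS and a signal of 53.7, rank 3378. The replicates gave nearly equal signals, 28.4 in replicate 1 and 29.4 in replicate 2, with summits 37 bp apart. These ranked 5043 and 2845 in the replicates' own ranked lists, and over all thresholded peaks the median ratio of replicate 1 to replicate 2 was 1.51. The Su(H) peak passed neither replicate's own threshold, and its −log10 q of 0.81 in the series' list is a q above 0.05. The DRE printed above was 41.5 bp from the summit. A DRE lay within 100 bp of 4.37% of all thresholded summits and of 6.44% of all protein-coding start sites.

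The coactivator gene mam (2R, 13991203 to 14060356, plus strand) is the longest member at 69.2 kb, has 3 annotated start sites and held 6 peaks, all intronic. The strongest (2R, 14025022 to 14025270) had a signal of 343, rank 235 of 3848, with 215 in replicate 1 and 128 in replicate 2. A neighbour 636 bp away (2R, 14024383 to 14024712) had 194, with 127 and 65.6. Both passed the threshold in each replicate alone, which no other mam peak did. The stronger summit was 6479 bp from the nearest mam TSS and 3436 bp from that of CG18371, a gene nested in mam. TAAT and ATTA separated by 3 bases, the arrangement at which paired-class homeodomains can bind as dimers, was centred 1.0 bp from the summit.

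The other mam peaks were weak. Near the outer start, peaks with signals of 53.6, 50.3 and 66.0 lay 2748, 5551 and 8099 bp from it, and the fourth, 50.9, lay 5739 bp from a mam TSS. Replicate 1 gave the peak of 53.6 a signal of 45.9 and replicate 2 gave it 17.6, the widest ratio among the 20 peaks at 2.61. The peak of 50.3 had 22.5 in replicate 1 and 31.3 in replicate 2, the peak of 66.0 had 31.8 and 34.5, and the peak of 50.9 had 23.1 and 27.5. In these 3 replicate 2 was the higher, and none of them passed either replicate's own threshold. The conservative list held the peak of 66.0 but not those of 53.6, 50.3 and 50.9.

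At mam the call of a promoter peak depended on the list. The conservative list held a peak with a signal of 71.7 whose summit was 308 bp upstream of the outer mam TSS and 188 bp from the TSS of RN-tre, with 42.4 in replicate 1 and 30.6 in replicate 2. The replicate 1 list held another with a signal of 45.7, 331 bp upstream of an inner TSS, and the ranked list of replicate 2 had no peak there. Neither passed in the series' main list, where the ranked peaks at those places had global IDRs of 0.0178 and 0.0558. A conservative intronic peak of 52.0 was absent from the main list in the same way, at 0.0245.

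The 5 E(spl) target genes sit in a cluster on 3R, from E(spl)mdelta-HLH to gro (25997621 to 26049911, 52.3 kb), which holds 13 protein-coding genes, 7 of them of the bHLH type. The cluster held 6 summits of the main list, 11.5 per 100 kb against 2.78 per 100 kb of the genome. The genome's figure covers all sequence of the arms, and whether the cluster's density of genes accounts for the contrast was not tested. They were uneven, with a gap of 20.2 kb between the E(spl)m3-HLH promoter and the gro promoter that spans E(spl)m3-HLH itself, E(spl)m4-BFM, E(spl)m5-HLH, E(spl)m6-BFM, E(spl)m7-HLH and E(spl)m8-HLH. Of the 5 members in the cluster only E(spl)m3-HLH had a peak at its own TSS.

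E(spl)m3-HLH (26021823 to 26023127, plus strand) had its promoter peak (26021299 to 26021628) 359 bp upstream of the TSS. Its signal was 184, rank 704, with 118 in replicate 1 and 78.0 in replicate 2. It is the strongest of the peaks at an own TSS among these genes, and the only one to pass the threshold in each replicate alone. Its window was also the poorest in G and C of all 20, at 23.4%, and held a TAATTA core 81.5 bp from the summit. A weaker peak 1047 bp further upstream (26020252 to 26020581) had a signal of 66.7, with 36.1 in replicate 1 and 31.6 in replicate 2, and passed in replicate 1 alone. It held a Su(H) core 70.0 bp to the left of its summit and a TAATTA core 49.5 bp to the right.

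Next to E(spl)m7-HLH (26037038 to 26038019) and E(spl)m8-HLH (26040240 to 26041008), both on the plus strand, the peaks lay at the promoters of gro. The gene gro encodes Groucho, the corepressor that the E(spl) bHLH proteins recruit. The first peak (26041479 to 26041808) was 92 bp from a gro TSS and 636 bp beyond the end of E(spl)m8-HLH, with a signal of 94.3, and 43.6 in replicate 1 and 53.9 in replicate 2. The second (26042414 to 26042607), 874 bp further on and 123 bp from an inner gro TSS, had 343, rank 236, with 202 and 137. Both passed in each replicate alone. The distance from E(spl)m7-HLH to the first was 3625 bp, so that E(spl)m7-HLH has a peak by the 5 kb rule and none by a 2 kb rule, and at their own start sites neither gene had a thresholded peak.

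E(spl)mbeta-HLH (26005046 to 26006023, minus strand) had 1 peak in its flank (26008910 to 26009239), 3052 bp upstream of its TSS. The summit was nearer to E(spl)malpha-BFM, 1818 bp upstream of that gene on the other strand. Its signal was 124, rank 1267, with 76.6 in replicate 1 and 48.5 in replicate 2, and it passed in each replicate alone. None of the 8 motifs matched within 100 bp of it.

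E(spl)m5-HLH (26028854 to 26029735, minus strand) had no thresholded peak, and the nearest summit was 7390 bp away. Its strongest ranked peak lay at its own TSS with a signal of 27.6, rank 20719. The replicates' strongest ranked peaks in the window were 15.3 and 19.6, the former in the flank and the latter at the start site. In the second series' ranked list and in both replicates these are the lowest of the strongest signals of the 10 genes.

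**Figure D3:**
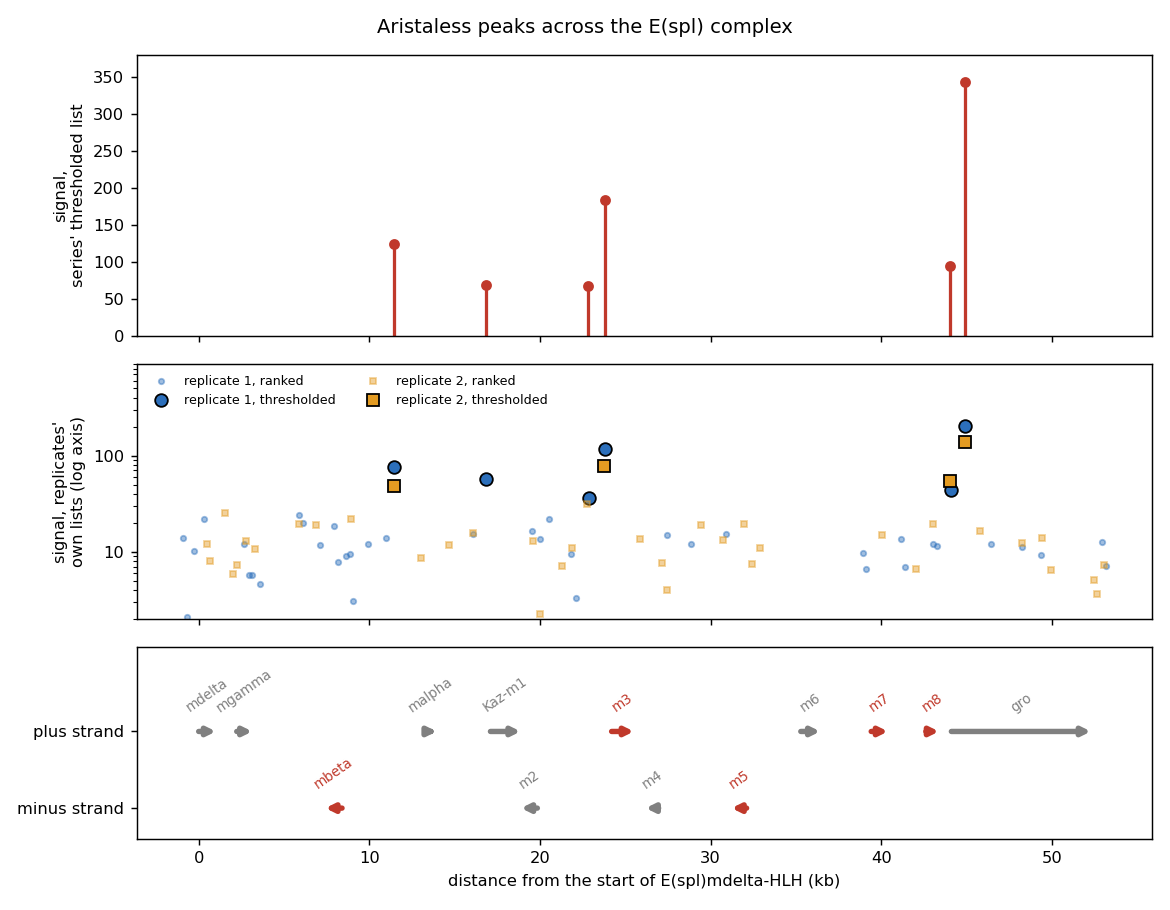
The E(spl) complex by distance in kb from the start of E(spl)mdelta-HLH. The upper panel gives the 6 peaks of the series' thresholded list with the authors' signal as height, the middle panel the thresholded and ranked peaks of each replicate on a log axis, and the lower panel the genes by strand, with the 5 members in red. The strongest peaks stand upstream of E(spl)m3-HLH (184) and at gro (343), and no thresholded peak stands near E(spl)m5-HLH.

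The ranked lists hold many peaks near every gene. The series' ranked lists had 0.90 and 0.92 peaks per kb of genome, and the members had 0.65 to 1.55 and 0.58 to 1.52. Replicate 1 had 0.50 per kb of genome and 0.28 to 1.37 at the members, and replicate 2 had 0.58 and 0.46 to 1.18. In each of the 4 ranked lists most members lay above the genome's density, with a minority below it. Su(H) had the lowest density in both series' lists, and Ser had 1.52 per kb in both. The strongest ranked peak in the second series' list separated the genes more. It had a signal of 343 at mam, E(spl)m7-HLH and E(spl)m8-HLH, 184 at E(spl)m3-HLH, 155 at neur, 134 at N, 124 at E(spl)mbeta-HLH, 53.7 at Su(H), 38.0 at Ser and 27.6 at E(spl)m5-HLH.

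Both replicates had a signal of their own at 19 of the 20 peaks, and replicate 1 was the higher at 13 of them (68.4%), against 86.4% of 3711 thresholded peaks. The median ratio of replicate 1 to replicate 2 was 1.34, from 0.546 to 2.61, against 1.51 for all. Of the 20 peaks, 9 (45%) passed in both single-replicate lists, against 47.7% of all, and 6 (30.0%) in neither, against 21.2%. Passing was counted by overlap of at least 1 bp. The neur peak of 32.4 counted in replicate 1 through the overlapping peak of 43.4, although its own signal there was 12.4. With an overlap of at least 50%, 13 peaks and not 14 overlapped a replicate 1 peak. The lowest ratio, 0.546, is also that of the neur peak of 32.4. The median signal of the 20 peaks was 76.4, below that of the whole list, and 9 (45%) stood above its median, where 50.2% of all peaks on the arms did. A q above 0.05 in the series' list was found for 7 of them (35%), against 24.6% of all. The peaks that passed in both replicates were 2 each at N, mam and gro and 1 each at neur, E(spl)m3-HLH and E(spl)mbeta-HLH, and all had signals of at least 94.3.

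**Figure D4:**
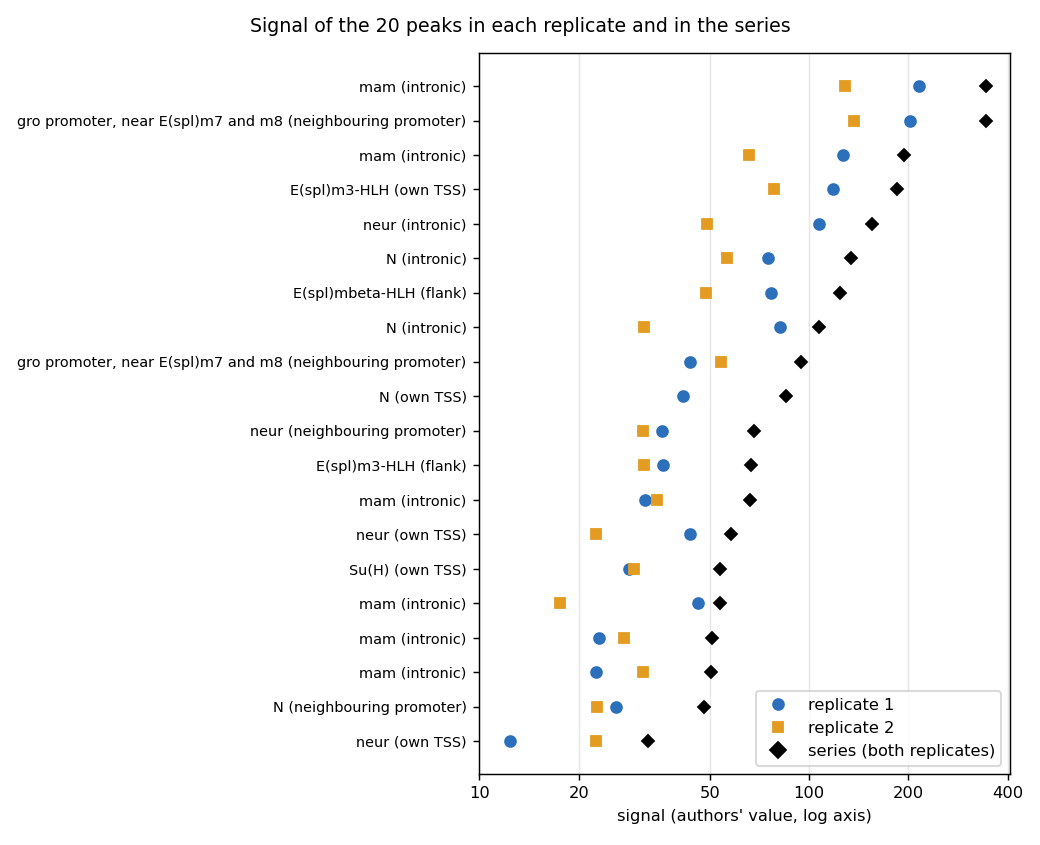
Signal of the 20 peaks on a log axis, as the authors give it in the ranked list of replicate 1 (circles), in that of replicate 2 (squares) and in the series' thresholded list (diamonds), ordered by the series' value. Single values have no error. Replicate 1 is the higher at 13 of 19 peaks, the weak peaks include most of those where replicate 2 is the higher, and the N promoter peak (84.8) has no point for replicate 2.

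Motif searches covered both strands of the window within 100 bp of a summit, and a match describes letters and not a binding site. TAATTA was found at 5 of the 20 summits (25%), against 17.7% of all 3822 thresholded summits on the arms and 9.39% of 19275 protein-coding start sites. Against all summits the direction depended on the window, since within 250 bp the share was 30% at the members and 33.0% at all summits. A Su(H) core, GTGGGAA or GTGAGAA, was found at 2 (10%), at the hyx promoter inside neur and upstream of E(spl)m3-HLH, against 4.50% and 4.28%. TAAT and ATTA separated by 3 bases matched 1 summit, the strongest of mam, against 2.98% and 1.09%, and separated by 2 bases they matched none, against 2.90% and 0.991%. TAATTA can overlap such a pair. GAGAGAG matched 1 (3.38% of all summits and 4.68% of start sites), TATCGATA 1, and neither GGTCACACT, known as Motif 1 (1.41% and 4.42%), nor CACGTG, an E-box that E(spl) repressors can bind (1.86% and 2.80%), matched any. With 20 windows, each of these shares moves by 5 percentage points for 1 peak. The windows had a median GC content of 32.8%, beside 34.8% for all thresholded summits and 42.3% for start sites.

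Of 32 other genes of the pathway and the E(spl) complex, 18 had a peak within 5 kb in the main list, beside 46.2% of all genes, and 10 had one at an own TSS, beside 18.7%. In replicate 1 alone 14 had a peak, beside 39.8% of all genes, and in replicate 2 alone 12, beside 32.1%, both near the share of all genes. The strongest was near O-fut1, which encodes a fucosyltransferase that modifies Notch, but its 541 lay at the promoters of CG13018 and CG13016. The strongest at an own start site was at numb, an inhibitor of Notch, with 347, and 215 in replicate 1 and 149 in replicate 2. Of the genes that modify Notch, rumi had a peak of 150 at its TSS and fng one of 50.7. The rumi summit also lay within 500 bp of the TSS of other genes. Of the 4 genes for the gamma-secretase that cuts the receptor, 3 had a peak, beside 46.2% of all genes. So few genes show no difference. The strongest aph-1 peak (181) lay at its own TSS and also within 500 bp of the TSS of another gene. Nct had a peak at the promoter of CG7006 (112). The pen-2 peak lay in its flank (56.2), and neither replicate's own thresholded list held a peak near pen-2. Psn had none. The ligand gene Delta and the metalloprotease gene kuz had none either.

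Among the genes that act on ligands or receptor by ubiquitin, mib1 had a strongest peak of 92.8 at a neighbouring promoter and 54.7 at its own, and Nedd4 had 51.8 at its own, while dx and Su(dx) had none. Among the nuclear cofactors, nej, which encodes the acetyltransferase CBP, had 231 in its flank and 83.2 at a TSS. The Mediator genes skd and kto had 205 and 69.9, both at neighbouring promoters, and skd also had 170 at its own. The corepressor gene CtBP had an intronic peak of 55.5, and gro had the peak of 343 described above at its own inner start site. The corepressor adaptor gene H and the Notch target dpn had no peak. In the E(spl) complex, 4 of 7 of these genes had a peak, near the 46.2% of all genes, and E(spl)mdelta-HLH, E(spl)mgamma-HLH and E(spl)m6-BFM had none. Kaz-m1 had one of 68.7 at its own TSS, and the strongest peaks near Kaz-m1, E(spl)m2-BFM and E(spl)m4-BFM (184) and near E(spl)malpha-BFM (124) are those of E(spl)m3-HLH and E(spl)mbeta-HLH already described. None of the 4 Bearded family genes on 3L, whose kind is known to block Neuralized, had a peak, beside the same 46.2%, and 4 genes are too few to read a difference from.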

How the data were processed

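The authors deposited 8 lists of ChIP-seq peaks on dm6, per the notes deposited with the samples: a thresholded and a ranked list per replicate, and for both replicates together a thresholded, a conservative and 2 ranked lists. The aligner and peak caller are unknown, being not given in the sources used here. Per peak, the authors' signal has an unstated scaling. The deposited −log10 q and −log10 global IDR were used as thresholds, and the deposited score, IDR scaled to at most 1000, was only carried along. A replicate's signal was taken from the overlapping peak (at least 1 bp) of its own ranked list. For 19 of the 20 peaks both values equal, within 0.0001, those that the first of the series' ranked lists (the one with 0.90 peaks per kb) gives for its inputs. No read counts are given, so depth and precision are unknown, and no interval was computed.

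Summits were set against the Ensembl release 115 annotation (BDGP6.54), which shares dm6 coordinates, and classed in order as own TSS, neighbouring promoter (both within 500 bp), exonic, intronic or flank (within 5 kb). The background is the same count over 13968 protein-coding genes. The named genes are the 10 members, each listed pathway gene with a peak, each gene at whose promoter a member's peak lies, and al. Listed genes without a peak, the genes that bound or fill gaps in the E(spl) complex, and CG18371, the nearest start site to a mam peak, were named after their values were seen. The members, lists and motifs were chosen with earlier results of these data known. Gene assignment and motif searches were tested on simulated data. Alternatives changed the list, thresholds, windows and gene assignment. Python 3.11.15, numpy 2.4.6, pandas 2.3.3 and matplotlib 3.10.9 were used.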

Additional observations from a re-analysis of the deposited data

How the results depend on the processing

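Of 46 alternative counts, 39 stayed within 1.5 times the main one. Members with a peak nearby numbered 6 to 9 throughout, 6 with a gene window of 2 kb and 9 with 10 kb. The share of all genes moved as well, to 33.3% with 2 kb and 59.9% with 10 kb. Members with a peak at an own TSS numbered 1 to 4, and distinct peaks 9 to 14, with a single replicate's list: the lower values are without replicate 1. With a global IDR of at most 0.0001, own-TSS members fell to 1, near the 9.0% of all genes, distinct peaks to 7 and the other pathway genes with a peak to 11, beside 24.7%. With an own q of at most 0.05, own-TSS members numbered 2, near the 16.1% of all genes, and distinct peaks 13. These alternatives keep fewer peaks by construction. The nearest-TSS assignment, which gave 6 members with a peak, Ser among them through the summit 14935 bp away, and the joining of the main and conservative lists were chosen after seeing the data. With the nearest-TSS assignment the share of all genes was 19.5%. Within 250 bp, TAATTA was at 6 members' summits (30%, beside 33.0% of all summits, so its direction turned), Su(H) cores at 5 (11.8% of all), pairs with 3 bases between at 2 (5.55%), Motif 1 at 1 (4.24%) and E-boxes at 1 (7.25%). No paired analysis was possible because there is 1 group. Unknown depth limits every statement on a missing peak.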

Other observations

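The direct repeat in the N promoter window, whose copies begin 95 and 48 bp before the summit, is 19 bp long, and 12 of the 3822 thresholded summits (0.314%) had a direct repeat at least as long in a window of the same length. The 12-bp run shared by both intronic N windows begins 23 and 20 bp after their summits and was found in 2 of 3822 windows (0.0523%), which are these. It was picked because both hold it, so a count of at least 2 was set by the choice. How often windows of 1 gene share a run as long was not counted over all genes, so the share does not measure rarity. In the E(spl)mbeta-HLH window an 11-bp run was repeated, and 5.73% of all windows had a repeat as long. All were found by searching the printed and similar windows after the data were seen. Whether repeats affect the mapping of reads or the placing of summits at N was not tested.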
